A study of Mus musculus with 8 samples.

Results

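Triglyceride assembly and lipase genes were followed in mouse liver after loss of the corepressor NCOR. The 10 genes, chosen by name, were the acyltransferase genes Gpam and Agpat2, the lipin genes Lpin1 and Lpin2, the genes of the last acylation steps Dgat1, Dgat2 and Mogat1, and the lipase genes Pnpla3, Pnpla2 and Mgll. Rows of the array table annotated to a single gene were taken, and the row with the highest mean over all 8 arrays stood for each gene. All 10 were measured, among 22180 genes in all, and no filter on dim genes was applied.

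The study compared 4 livers of mice labelled NCOR knockout, which had received adeno-associated virus (AAV) carrying Cre recombinase, with 4 livers labelled wild-type, whose virus carried GFP. Cre excises the floxed part of the NCOR gene, and by the design text floxed mice received either virus, though the controls are labelled wild-type, so their allele is not settled. Mice of both groups were 3 months old, ate normal chow and were sampled 2 weeks after intravenous injection, at 5 pm (ZT10 on the light schedule). The sources used here do not give the promoter that drives Cre, the AAV serotype or the strain and sex of the mice. Cre went only to the knockout group, so Cre itself and loss of NCOR cannot be told apart. Values for the targeted gene were not analysed here, so the labels were not checked against it. Replicates are labelled biological without naming the animal behind each array, and the p-values cover only the spread among these 8 samples.

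Triglyceride is built in the endoplasmic reticulum by adding fatty acyl groups to glycerol phosphate, removing the phosphate and adding the final acyl group. Lipases at the lipid droplet take the acyl groups off again, one by one. Hepatocytes do both, and the stored and released fat feeds oxidation and lipoprotein secretion. NCOR brings the histone deacetylase HDAC3 to nuclear receptors and holds down their target genes, lipid genes among them. The comparison asks which of the genes in this pathway differ once NCOR is lost.

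All values are log2 of the probe-set intensity of a 1-colour expression array, and changes are knockout minus control. Array medians lay between 41.0 and 44.1 intensity units, and the number of arrays, 4 a group, limits the precision. The labelled tissue was checked on 10 hepatocyte markers: Alb stood at 13.52 in both groups and 0 of the 10 markers passed the test, while 1 of them, Ass1, was read at 7.64 in control liver. Across 22180 genes 366 passed a limma adjusted p under 0.05 (limma is a moderated linear model; adjustment was by Benjamini-Hochberg over all genes), 181 higher and 185 lower, or 147 higher and 383 lower with each array centred on its median.

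Of the 3 lipase genes 2 rose in knockout liver. Gpam, Agpat2 and the 5 genes of the lipins and the last acylation steps did not pass the test. With any single array left out, 0 or 1 of the 10 genes passed. Pnpla3 rose 1.94-fold and Mgll 1.36-fold, which makes 2 of the 10 genes, where 1.65% of all genes passed, 0.816% higher and 0.834% lower. The 10 genes were bright, at a median level of 10.8 against 5.88 over all genes, and brighter genes passed more often. In a fit of the 11090 genes at or above the median level 551 passed, 4 of the members among them. Agpat2 and Pnpla2 were both 1.22-fold higher without passing. In Pnpla3, Mgll, Agpat2 and Pnpla2 every knockout array lay above every control array. Such separation was seen in 10.4% of all genes, and in the higher direction in 4.9%. The median change of the 10 genes was 0.19 against 0.01 over all genes, and 8 of 10 lay above 0, against 52% of all genes. With each array centred on its median 6 of 10 lay above 0, and the median change was 0.15 against -0.04 over all genes. The 10 genes were chosen with earlier results of these data known, so these contrasts with all genes are not independent evidence. In whole liver, more cells of a type and more RNA per cell cannot be told apart.

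**Figure D1:**
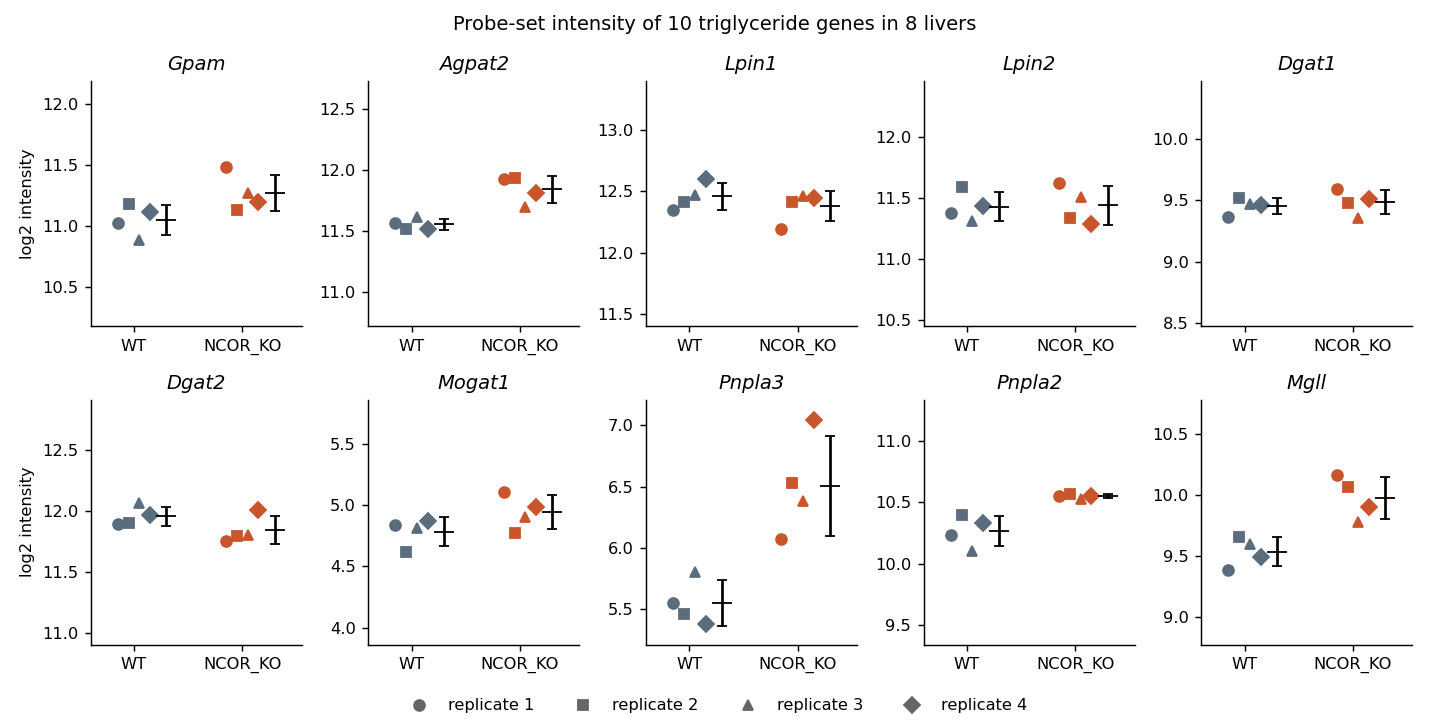
Log2 intensity (y axis, each panel spanning the same range of log2 units) of the 10 genes in 4 WT and 4 NCOR_KO livers, with the mean and SD beside the points and replicate numbers as marker shapes. The groups do not overlap for Pnpla3, Mgll, Agpat2 and Pnpla2, and they overlap for the other 6 genes.

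The promoters of these 4 genes are shown because their groups do not overlap. Each is the run of 250 bases just before the transcription start in RefSeq on GRCm38.p6, 5′ to 3′ on the strand of the gene. Capitals mark a GC box (GGGCGG, the site of Sp1-type factors), an E-box (CACGTG, bound by clock factors and, in tandem, by the carbohydrate-responsive factor ChREBP) or the core motif of nuclear receptors (AGGTCA), each searched on both strands.

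Pnpla3 (chr15:84167566-84167815, plus strand): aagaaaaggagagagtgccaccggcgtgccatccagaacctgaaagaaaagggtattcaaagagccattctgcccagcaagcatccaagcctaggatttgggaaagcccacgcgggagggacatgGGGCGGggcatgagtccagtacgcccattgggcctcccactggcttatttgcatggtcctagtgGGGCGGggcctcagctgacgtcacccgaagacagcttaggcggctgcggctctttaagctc

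Mgll (chr6:88724162-88724411, plus strand): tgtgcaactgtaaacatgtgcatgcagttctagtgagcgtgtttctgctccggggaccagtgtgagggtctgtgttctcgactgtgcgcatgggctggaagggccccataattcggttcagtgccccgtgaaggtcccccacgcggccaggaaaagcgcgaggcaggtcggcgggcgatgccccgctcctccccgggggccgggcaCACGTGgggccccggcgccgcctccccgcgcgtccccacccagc

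Pnpla2 (chr7:141454938-141455187, plus strand): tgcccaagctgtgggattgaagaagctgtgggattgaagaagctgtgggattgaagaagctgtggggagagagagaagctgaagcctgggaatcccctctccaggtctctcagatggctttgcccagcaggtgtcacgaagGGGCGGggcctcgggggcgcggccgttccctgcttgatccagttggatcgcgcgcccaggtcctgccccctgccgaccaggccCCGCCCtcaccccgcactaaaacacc

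Agpat2 (chr2:26604418-26604667, minus strand): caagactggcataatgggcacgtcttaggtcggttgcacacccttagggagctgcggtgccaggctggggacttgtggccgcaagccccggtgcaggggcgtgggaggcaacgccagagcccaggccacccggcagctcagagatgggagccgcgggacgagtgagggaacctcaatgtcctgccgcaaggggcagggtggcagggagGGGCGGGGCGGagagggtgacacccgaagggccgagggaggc

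A GC box lay in the windows of Pnpla3, Pnpla2 and Agpat2, and in 32.7% of the 32851 RefSeq windows of the same length. The 2 GC boxes of Agpat2 overlap by 1 base. The E-box of Mgll lay 39 to 44 bases before the start, and 6.02% of all windows hold one. Mgll has another listed start, whose window held a GC box and no E-box. Over the 8 genes with a window in the RefSeq table (12 windows), 6 had a GC box, 2 had an E-box (Mgll and Lpin2) and 2 had the receptor motif (Lpin1 and Gpam, 14.0% of all windows). By window, the unit of the shares over all windows, a GC box was in 7 of 12, an E-box in 2 and the receptor motif in 2. The windows printed above were 58.4 to 69.2% G and C, against a median of 52.4% over all windows. The sterol response element (TCACNCCAC, the site of SREBP) was in 0 of the 12 windows and in 1.05% of all windows. A match describes letters in these windows only.

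Pnpla3 encodes a patatin-like acylhydrolase and transacylase of the lipid droplet, and its gene is known as a target of the lipogenic factors SREBP-1c and ChREBP. Its log2 intensity was 5.55, 5.46, 5.81 and 5.38 in control livers 1 to 4 and 6.07, 6.53, 6.38 and 7.04 in knockout livers 1 to 4. All knockout values were above all control values, and the knockout livers spread over more than the controls did (SD 0.41 against 0.19, n = 4 each). Pnpla3 rose by 0.96 ± 0.18 (SE; 95% interval 0.57 to 1.35; limma adjusted p = 0.0303). The call was lost without WT replicate 1, 2 or 4 (adjusted p = 0.0736, 0.0582 and 0.0867) and without NCOR_KO replicate 2 or 3 (0.0934 and 0.0604). The change itself stayed between 0.78, without NCOR_KO replicate 4, and 1.10, without NCOR_KO replicate 1. Its group means, 5.55 in control and 6.51 in knockout liver, lay on either side of the median gene at 5.88. In intensity units the control livers stood at 41.5 to 55.9, where array medians were 41.0 to 44.1. How far these control values lay above background is not known. Its neighbours on the chromosome did not pass: Pnpla5, a related lipase gene, was at 0.28 ± 0.10 (SE; adjusted p = 0.200) and Samm50, a mitochondrial outer membrane gene, at 0.11 ± 0.06 (adjusted p = 0.440).

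Pnpla2 encodes adipose triglyceride lipase, which removes the first acyl group of stored triglyceride. It was read at 10.23, 10.40, 10.11 and 10.33 in control livers and at 10.56, 10.57, 10.53 and 10.55 in knockout livers. The knockout values lay close together (SD 0.02) above the spread of the controls (SD 0.13, n = 4 each). The difference was 0.29 ± 0.07 (SE; 95% interval 0.13 to 0.44; limma adjusted p = 0.0751), which did not pass, and it passed with array weights (0.0420), with a trend and robust variance (0.0402) and in a fit of the brighter genes only, those at or above the median (0.0445). Pnpla2 did not pass with each array centred on its median (0.158), with the replicate number as a block (0.128) or with any single array left out (0.0510 to 0.187). The 2 patatin-like genes were also set against each other within each array. Pnpla3 minus Pnpla2 was -4.72 ± 0.31 in control and -4.05 ± 0.41 in knockout liver (SD, n = 4), so Pnpla3 gained 0.67 ± 0.25 (SE) on Pnpla2. The exact two-sided permutation p over 70 assignments was 0.0571, or 0.114 adjusted over the 4 gene pairs compared, so unequal change of the pair was not shown.

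Mgll encodes monoglyceride lipase, which frees the last fatty acid from glycerol. Its values were 9.39, 9.66, 9.60 and 9.49 in control livers and 10.17, 10.06, 9.78 and 9.90 in knockout livers. The groups did not overlap, with the gap lying between WT replicate 2 and NCOR_KO replicate 3. Mgll rose by 0.44 ± 0.09 (SE; 95% interval 0.23 to 0.65; limma adjusted p = 0.0466). The call was lost with each array centred on its median (0.40, adjusted p = 0.0697) and without any single array but NCOR_KO replicate 3. The adjusted p was 0.117, 0.0510, 0.0832 and 0.119 without WT replicates 1 to 4 and 0.106, 0.140 and 0.0762 without NCOR_KO replicates 1, 2 and 4.

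Likeness of course over the 8 arrays was measured by the root mean square difference of log2 values after centring each gene on its mean. This distance includes the difference between the groups, so genes close to Pnpla3 or Mgll were selected in part for a similar rise. The changes and adjusted p-values of genes selected in this way repeat the selection and are not independent evidence of a rise. Listed here are the genes with the most similar course. For Pnpla3 these were Gstt3, a glutathione transferase gene (difference 0.17 log2 units), Cyp2c39, a cytochrome P450 gene (0.21), and Lpl, the lipoprotein lipase gene (0.21). Of these Gstt3 (0.76, limma adjusted p = 0.0376) and Lpl (0.88, adjusted p = 0.00888) rose, and Cyp2c39 was at 0.74 (adjusted p = 0.0751). On the mean of its rows Lpl was at 0.49 and passed (adjusted p = 0.0128). Gstt3 lost the call without any single array but WT replicate 3 (adjusted p from 0.0598 to 0.102), the array without which Cyp2c39 passed (0.0474). For Mgll they were the glutathione transferase gene Gstm4 (0.06), Pex11a, a peroxisome division gene (0.07), and Mrap, which encodes an accessory protein of melanocortin receptors (0.07). Gstm4 (0.48, limma adjusted p = 0.0179) and Mrap (0.54, adjusted p = 0.0179) rose, and Pex11a was at 0.40 (adjusted p = 0.130). Both calls were lost without WT replicate 1 (0.0550 and 0.0561) and without NCOR_KO replicate 2 (0.0715 and 0.0753), and that of Mrap without WT replicate 4 (0.0603).

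The early acylation genes were higher without passing. Agpat2 encodes the acyltransferase that turns lysophosphatidate into phosphatidate. It was read at 11.57, 11.52, 11.61 and 11.52 in control livers and at 11.92, 11.93, 11.70 and 11.81 in knockout livers. The control values lay close together (SD 0.04) and all knockout values lay above them (SD 0.11, n = 4 each). The difference was 0.29 ± 0.07 (SE; 95% interval 0.14 to 0.44; limma adjusted p = 0.0695), and it passed with a trend and robust variance (0.0244) and among genes at or above the median level (0.0410). Gpam, the mitochondrial acyltransferase that starts glycerolipid synthesis and a known SREBP-1c target, was read at 11.03, 11.18, 10.89 and 11.11 in control livers. In knockout livers Gpam stood at 11.48, 11.14, 11.27 and 11.20. The groups overlapped, NCOR_KO replicate 1 was the highest array, and the difference was 0.22 ± 0.09 (SE; 95% interval 0.02 to 0.42; limma adjusted p = 0.267).

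**Figure D2:**
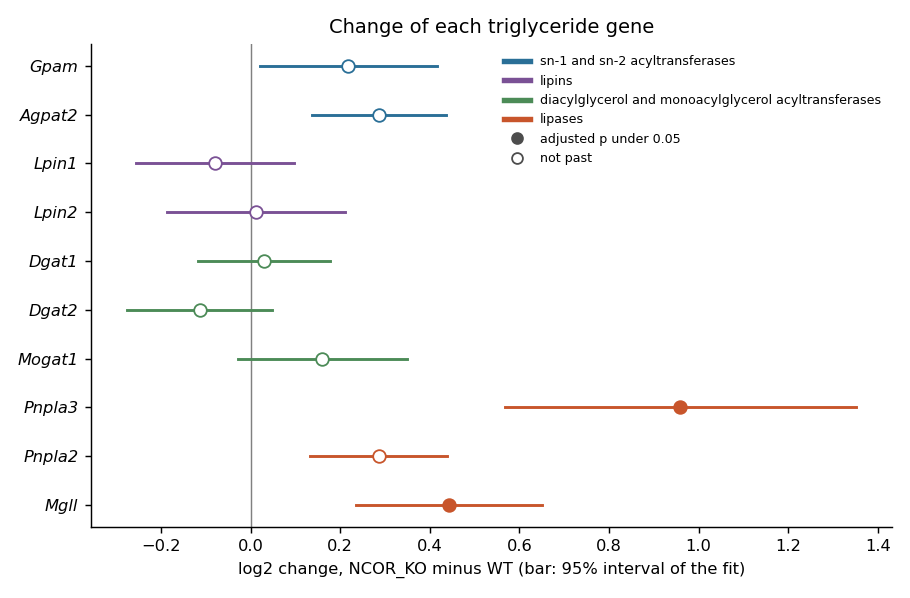
Log2 change of the 10 genes (x axis, NCOR_KO minus WT; y axis, genes in pathway order) with the 95% interval of the limma fit. Filled points mark an adjusted p under 0.05: Pnpla3 at 0.96 and Mgll at 0.44 are filled, and the open points run from -0.11 for Dgat2 to 0.29 for Agpat2 and Pnpla2.

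Lipins remove the phosphate from phosphatidate to give diacylglycerol, and lipin 1 also acts as a coactivator in the nucleus. Lpin1 was read at 12.35, 12.41, 12.47 and 12.60 in control livers and at 12.20, 12.41, 12.46 and 12.45 in knockout livers. The groups overlapped, with NCOR_KO replicate 1 lowest and WT replicate 4 highest of all. The difference was -0.08 ± 0.08 (SE; limma adjusted p = 0.668), and its 95% interval of -0.26 to 0.10 lies below the differences of Agpat2 and Mgll. Lpin1 was not tested against either of these genes. Without NCOR_KO replicate 1 the difference for Lpin1 was -0.019, without WT replicate 4 it was -0.031, and with each array centred on its median -0.12.

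Lpin2, the lipin that is prominent in liver, was read at 11.38, 11.59, 11.31 and 11.43 in control livers and at 11.62, 11.34, 11.51 and 11.28 in knockout livers. Those values overlapped through most of their range, and the difference of 0.01 ± 0.09 (SE; limma adjusted p = 0.967) became -0.032 with each array centred on its median. Lpin2 alone among the 10 genes had another row, dimmer at a mean of 9.55. On that row the control livers stood at 9.35, 9.45, 9.36 and 9.41 and the knockout livers at 10.12, 9.66, 9.78 and 9.29, a difference of 0.32 ± 0.14 (SE; adjusted p = 0.302 over all single-gene rows). Both rows had NCOR_KO replicate 1 highest and NCOR_KO replicate 4 lowest among knockout livers, and they disagree on the size of the difference. Lpin1 minus Lpin2 changed by -0.09 ± 0.15 (SE; exact permutation p = 0.60, also adjusted over the 4 pairs).

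The last acyl group is added by DGAT1 and DGAT2, which are unrelated proteins, and MOGAT1, a relative of DGAT2, makes diacylglycerol from monoacylglycerol. Dgat1 was read at 9.37, 9.52, 9.47 and 9.46 in control livers and at 9.59, 9.48, 9.36 and 9.51 in knockout livers. The difference for Dgat1 was 0.03 ± 0.07 (SE; 95% interval -0.12 to 0.18; limma adjusted p = 0.873), or -0.015 with each array centred on its median. Dgat2 was read at 11.89, 11.90, 12.06 and 11.97 in control livers and at 11.75, 11.79, 11.80 and 12.01 in knockout livers. Of the knockout arrays 3 lay below all controls and NCOR_KO replicate 4 lay among them, and the difference was -0.11 ± 0.07 (SE; 95% interval -0.28 to 0.05; limma adjusted p = 0.483). The upper end of that interval lies under the lower end for Pnpla2, though these genes were not tested against each other. Dgat1 minus Dgat2 changed by 0.14 ± 0.09 (SE; exact permutation p = 0.143, or 0.190 adjusted over the 4 pairs), and by 0.079 without NCOR_KO replicate 1.

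Mogat1 was dim, below the median gene. It was read at 4.84, 4.61, 4.82 and 4.87 in control livers and at 5.11, 4.78, 4.91 and 4.99 in knockout livers. The groups overlapped through NCOR_KO replicate 2, and the difference was 0.16 ± 0.09 (SE; 95% interval -0.03 to 0.35; limma adjusted p = 0.393). It was 0.10 without WT replicate 2 or without NCOR_KO replicate 1, and 0.048 without both. Mogat1 minus Dgat2 was higher in every knockout array than in every control array, by 0.27 ± 0.11 (SE; exact permutation p = 0.0286, the smallest that 70 assignments allow, and 0.114 adjusted over the 4 pairs, which does not pass).

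The livers of one group were not alike in these genes. NCOR_KO replicate 1 held the highest knockout value of 5 genes (Gpam, Lpin2, Dgat1, Mogat1 and Mgll) and the lowest of 3 (Lpin1, Dgat2 and Pnpla3). NCOR_KO replicate 4 held the highest of 2, Pnpla3 and Dgat2, and the lowest of 1, Lpin2. Pnpla3 and Mgll, which both rose, thus took different orders among the knockout livers: Pnpla3 ran from replicate 1 through 3 and 2 up to 4, and Mgll from replicate 3 through 4 and 2 up to 1. Among controls WT replicate 2 held the highest value of 5 genes and WT replicate 1 that of 0.

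**Figure D3:**
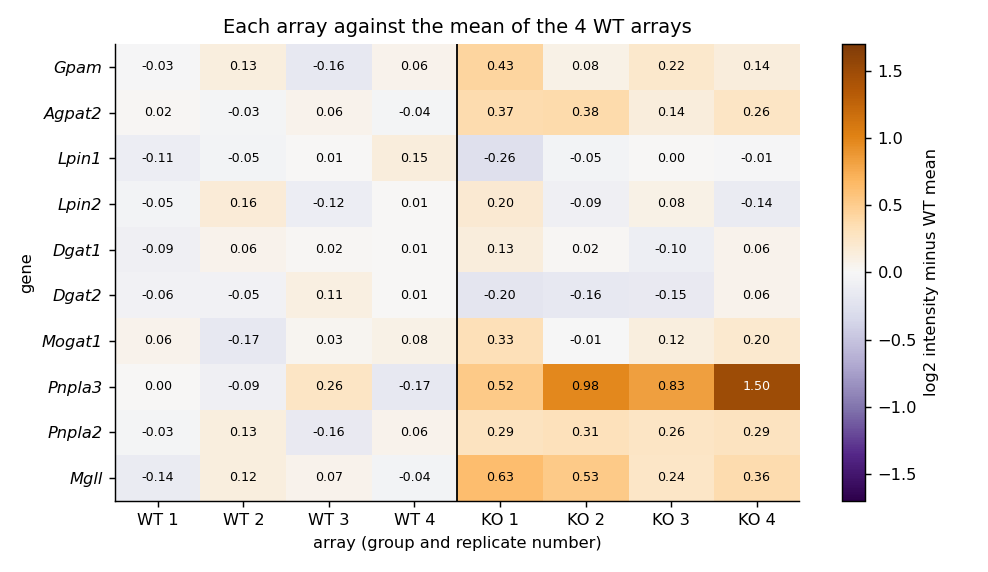
Each array's log2 intensity minus the mean of the 4 WT arrays, printed and coloured, for the 10 genes (rows) in 8 livers (columns). Pnpla3 is at 0.52 in NCOR_KO replicate 1, 0.98 in replicate 2 and highest in replicate 4, while Mgll is at 0.63, 0.53 and 0.36 there.

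Other genes of the pathway were taken from a list of 37, of which 33 were measured. Of these 3 rose, 0 fell and 30 did not pass, with a median change of 0.07. Under 3 alternatives 1 gene, Cnep1r1, fell. Lipa, the lysosomal acid lipase gene, was read at 11.54, 11.49, 11.63 and 11.42 in control livers and at 11.96, 11.92, 11.98 and 11.91 in knockout livers. All knockout values were above all control values, and Lipa rose by 0.42 ± 0.06 (SE; limma adjusted p = 0.00936). It passed in all 17 other fits. Abhd6 encodes a monoacylglycerol hydrolase, a function it shares with the product of Mgll. It was read at 10.53, 10.55, 10.50 and 10.50 in control livers and at 11.07, 10.96, 10.77 and 10.92 in knockout livers, which did not overlap. Abhd6 rose by 0.41 ± 0.07 (SE; limma adjusted p = 0.0198), a call lost without WT replicate 1, 3 or 4 (0.0538, 0.0558 and 0.0633) or NCOR_KO replicate 2 (0.0779). Fitm2, whose protein helps lipid droplets bud from the endoplasmic reticulum, rose by 0.41 ± 0.07 (SE; limma adjusted p = 0.0177), from 10.24 to 10.47 in control livers to 10.74 to 10.88 in knockout livers. The call for Fitm2 was lost without NCOR_KO replicate 1 or 2 (0.0524 and 0.0563).

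The control of the lipases was measured as well. G0s2 encodes the protein that inhibits adipose triglyceride lipase. It was read at 7.76, 8.80, 8.72 and 8.40 in control livers and at 9.31, 9.36, 9.04 and 9.25 in knockout livers. The knockout livers lay together above controls that spread widely (SD 0.14 against 0.47, n = 4 each). G0s2 was at 0.82 ± 0.19 (SE; limma adjusted p = 0.0691), and passed without WT replicate 1 (0.60, adjusted p = 0.0496) or WT replicate 2 (0.95, adjusted p = 0.0459), with array weights (0.0464) and among genes at or above the median level (0.0485). On the mean of its rows G0s2 was at 0.52. Abhd5, the coactivator of that lipase, was at 0.17 ± 0.06 (SE; limma adjusted p = 0.234) and was named after its values were seen.

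In the remaining roles 0 genes passed, and the largest change in each is given. Among sn-1 acyltransferase genes it was that of Gpat3 (0.45 ± 0.17 SE, limma adjusted p = 0.234), read at 8.74 and 8.62 in NCOR_KO replicates 1 and 2 and at 7.87 and 8.17 in replicates 3 and 4. A dimmer row of Gpat3 was at 0.15, and the mean of both rows at 0.30 (adjusted p = 0.298). Acsl5, an acyl-CoA synthetase gene, was at 0.16, the sn-2 acyltransferase gene Agpat5 at -0.15, Awat2, a wax synthase gene of the DGAT2 family, at -0.10 (-0.14 after quantile normalization) and Gpd1l, a glycerol phosphate dehydrogenase gene, at -0.21. Their adjusted p-values ran from 0.261 to 0.582. Cnep1r1, a subunit of the phosphatase that acts on lipins, was named after its values were seen: at -0.27 ± 0.06 (SE; limma adjusted p = 0.0699) all knockout values lay below all control values. It was lower and passed with each array centred on its median (0.0325), with array weights (0.0489) and among genes at or above the median level (0.0407).

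**Figure D4:**
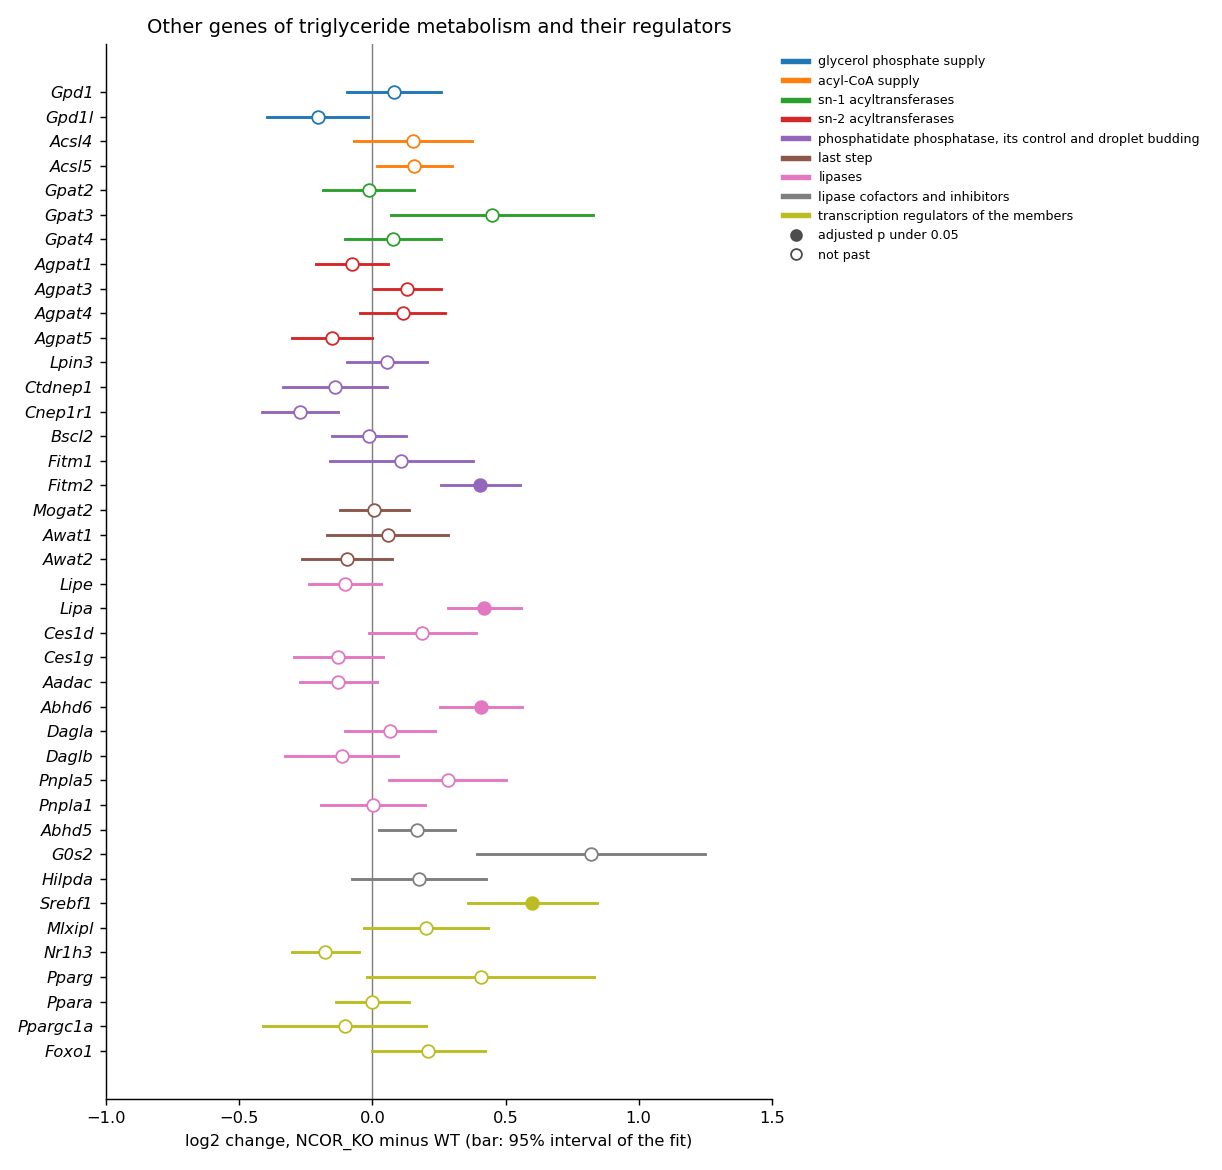
Log2 change (x axis, NCOR_KO minus WT) of 33 other genes of triglyceride metabolism and 7 transcription regulators (y axis, coloured by role) with the 95% interval of the limma fit. Filled points, at an adjusted p under 0.05, are Fitm2, Lipa, Abhd6 and Srebf1. G0s2 has the largest change, 0.82, and an open point.

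Transcription regulators that act on these genes were set beside them. Of 7 measured, 1 rose, 0 fell and 6 did not pass. Srebf1, which encodes SREBP-1, was read at 8.65, 8.47, 8.87 and 8.86 in control livers and at 9.45, 9.45, 9.09 and 9.26 in knockout livers. The groups did not overlap, and Srebf1 rose by 0.60 ± 0.11 (SE; limma adjusted p = 0.0285). Its call was lost without WT replicate 1 (0.0758) or NCOR_KO replicates 1, 2 or 4 (0.0772, 0.0962 and 0.0553). Among knockout livers Srebf1 was highest in replicates 1 and 2. Pnpla3 was highest there in replicate 4, next in replicate 2 and lowest in replicate 1. A link between Srebf1 and Pnpla3 was not tested. Mlxipl, which encodes ChREBP, was at 0.20 (limma adjusted p = 0.381), Pparg, a driver of Mogat1 in fatty liver, at 0.41 (0.333), Foxo1, an activator of Pnpla2, at 0.21 (0.318), Nr1h3, which encodes LXRα, at -0.18 (0.168), Ppargc1a, an activator of Lpin1, at -0.10 (0.758) and Ppara at -1.5e-05.

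Markers of other cells moved with the groups in part. All 8 endothelial markers lay above 0 (median 0.23), against 52% of all genes, with 0 past the threshold. Of the 8, 6 had an unadjusted limma p under 0.05, as did 3528 of all 22180 genes. In 2 of them every knockout array lay above every control array, which was seen in 4.9% of all genes. Their summed intensity over all 8 markers was 5507 to 6578 in control and 6417 to 7503 in knockout livers. Summed macrophage markers (7) ran from 1784 to 3472 in control and 2222 to 3811 in knockout livers, and 0 passed. WT replicate 2, at 1784, and NCOR_KO replicate 1, at 2222, lay below the other arrays of their groups (2916 or more and 3398 or more). These arrays also held the highest value of 5 of the 10 genes each in their groups. Without both arrays Pnpla3 was at 1.07 (limma adjusted p = 0.0281) and Mgll at 0.42 (adjusted p = 0.0851, which does not pass). Stellate cell markers (8) ran from 6323 to 6950 and from 6258 to 7377, and 0 passed. Adipocytes express most of the 10 genes. The defining adipocyte marker Adipoq was dim, with means of 4.28 and 4.25 in the groups, and 0 of 6 adipocyte markers passed, with a sum, largely of Car3, which hepatocytes also express, of 8302 to 9382 in control and 8044 to 8805 in knockout livers. The part of endothelial, macrophage, stellate and fat cells in the changes above was not tested.

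**Figure D5:**
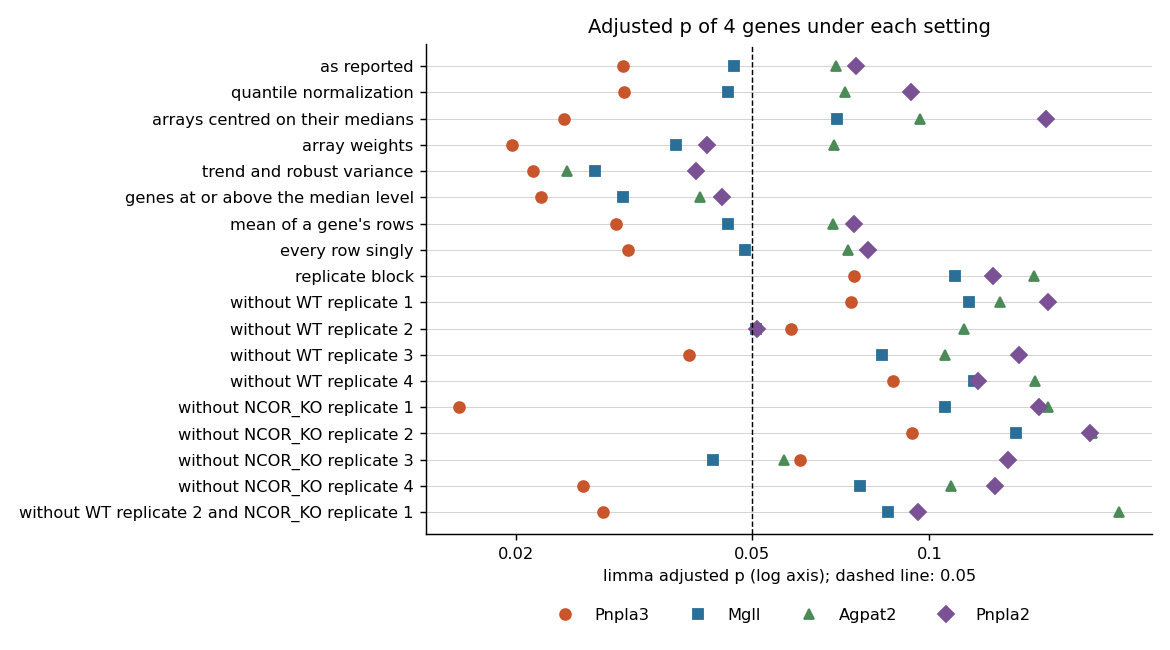
Limma adjusted p (x axis, log scale; dashed line at 0.05) of Pnpla3, Mgll, Agpat2 and Pnpla2 as reported and under 17 other settings (y axis). Pnpla3 lies left of the line in 11 of the 17 and Mgll in 7, while Agpat2 and Pnpla2 lie left of it in 2 and 3.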

How the data were processed

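RNA of 8 livers, 4 in each group, was hybridised to 1-colour Affymetrix Mouse Gene 2.0 arrays. Groups and replicate numbers come from the sample labels. The value table holds deposited intensities, linear and already processed: RMA and Partek are named in the submitters' processing notes, with neither versions nor roles, and the genome build is not given in the sources used here. Log2 was taken (2.44 to 13.70) with no further normalization. Of 41345 rows 23521 had 1 gene; the row with the highest mean was kept, giving 22180 genes. Symbols were matched by gene identifier to RefSeq (GRCm38.p6) for 23328 rows.

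The test was limma 3.58.1 in R 4.3.3 (lmFit and eBayes with an intercept and the group), adjusted by Benjamini-Hochberg over all genes at 0.05. Pairs of genes were compared by exact two-sided permutation of the per-array difference. The steps were tested on simulated data.

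The members and lists were chosen with earlier results of these data known. Named genes are the 10 members, listed genes past the threshold, the largest change in each role without one, and the 3 genes closest in course to each changed member. Alternatives were quantile normalization, median centring, array weights, trend and robust variance, a filter on dim genes, other handling of rows, a replicate block, other thresholds and leaving out single arrays. One more, which drops both WT replicate 2 and NCOR_KO replicate 1, was added after the data had been seen, because each lay highest of its group on the second principal component (20.4% of the variance). Figures were drawn with matplotlib 3.10.9.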

Additional observations from a re-analysis of the deposited data

Results flagged for a closer look

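In 60 sets of 4 arrays (each named gene and each gene pair in each group) a single array far from the other 3 was looked for with Dixon's ratio of gap to range, whose critical value chance exceeds in about 1 of 20 sets; 4 arrays were found, none of them for the 10 genes or their pairs. For Gstt3, the gene closest in course to Pnpla3, these were WT replicate 3 at 9.79, with the other controls at 9.24 to 9.27, and NCOR_KO replicate 4 at 10.55, with the other knockout livers at 9.98 to 10.04. For Gpd1l it was WT replicate 3 at 8.40, above the other controls at 8.15 to 8.19, and for Agpat5 it was WT replicate 4 at 8.04, below the other controls at 8.15.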

How the results depend on the processing

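Of the 10 genes 2 passed as reported, 1 with arrays centred on their medians, 3 with array weights and 4 with a trend and robust variance. Among genes at or above the median level, a fit that leaves out Mogat1, 4 passed. At thresholds of 0.01 and 0.1 it was 0 and 4, without single arrays 0 or 1, and without both WT replicate 2 and NCOR_KO replicate 1 it was 1. The 366 changed genes became 530 with arrays centred on their medians, 497 with array weights and 444 with a trend and robust variance. Among the 11090 genes at or above the median level they became 551. They became 88 and 807 at thresholds of 0.01 and 0.1, 202 without that pair of arrays and 120 to 297 without single arrays. The 3 changed genes of the rest of the pathway became 5 with array weights and 5 among genes at or above the median level (4 higher and 1 lower in both), 4 with arrays centred on their medians (3 higher and 1 lower) and 1 to 4 without single arrays, and the 1 changed regulator became 0 without that pair of arrays and 0 or 1 without single arrays. With the replicate number as a block 155 genes, 0 of the 10 members, 1 pathway gene and 0 regulators passed. Same-numbered arrays correlated between -0.09 and 0.02 in their deviations from group means. Closest to the knockout array of their own number were 0 of 4 control arrays. With so few arrays this cannot settle whether the numbers pair the samples. Differences near 0 changed sign: Lpin2 was at -0.032 and Dgat1 at -0.015 with arrays centred on their medians, and without single arrays they ran from -0.051 to 0.065 and from -0.0062 to 0.071, and Lpin1 minus Lpin2 from -0.16 to 0.032. Pnpla3, Mgll, Agpat2 and Pnpla2 kept their upward direction in all 17 other fits. The causes were not tested. Without a single array the exact test of a gene pair cannot go below 0.0571, and with sign flips of numbered pairs not below 0.125. Mogat1 lay below the median gene level, as did Pnpla3 in every control liver, and the sources used here do not give signal over background.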
